A study of Mus musculus with 8 samples.

Results

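Tau and the structural microtubule-associated proteins stabilise the microtubules of axons and dendrites, and a small set of kinases controls how tightly they bind by phosphorylating them. The levels of 10 such genes were followed in the brain of diabetic mice on a ketogenic or a normal diet. They were taken by symbol from the gene tables: Mapt, Map1a, Map1b and Map2 (microtubule-associated proteins), Gsk3b, Cdk5, Cdk5r1, Mark1 and Mark2 (serine and threonine kinases of tau and 1 kinase activator) and Fyn (a tyrosine kinase). All 10 were present among the 17983 gene symbols of the tables, and all 10 passed the filter on low counts that left 14895 genes for testing.

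Messenger RNA was sequenced from 4 ketogenic and 4 control libraries of brain from male db/db mice, a strain with a leptin receptor mutation that becomes obese and diabetic, so the control mice carry the mutation as well. Per the series description, the ketogenic diet, which is high in fat and very low in carbohydrate, or a normal diet was given from 9 weeks of age, and whole brains were taken at 6 months. Nothing in the labels says how the libraries relate to single animals, so p-values measure the spread between these libraries. Whole brain was sampled, so fewer cells of a type and less RNA per cell cannot be told apart.

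In brain, tau (the product of Mapt) is found mainly in axons and MAP2 mainly in dendrites and cell bodies, MAP1B is the early and MAP1A the mature form of a related pair, and all of them bind along the microtubule wall. GSK-3 beta and CDK5 phosphorylate tau at serines or threonines that precede a proline, CDK5 needs a neuronal activator such as p35 (the product of Cdk5r1), and the MARK kinases phosphorylate the microtubule-binding repeats and so release tau. Fyn binds tau and phosphorylates it on tyrosine. Phosphorylation itself was not measured here, only messenger RNA.

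None of the 10 genes passed the test between diets. With edgeR's quasi-likelihood test and p-values adjusted by Benjamini and Hochberg's method, 0 of 10 genes were past an adjusted p of 0.05, where 6.52% of all tested genes were (3.3% with higher and 3.22% with lower values in ketogenic libraries). At an unadjusted p under 0.05 there were 4 of 10, Cdk5 and Mark2 with higher and Map1b and Gsk3b with lower values in ketogenic libraries, where 24.6% of all tested genes reached that level (12.1% higher and 12.5% lower). The DESeq2 Wald test passed 3 of the 10, Cdk5 with higher and Map1b and Gsk3b with lower values, against 12.8% of the genes to which it gave an adjusted p, and limma-voom passed 0 of 10. The 10 log2 fold changes, ketogenic over control, ran from -0.17 to 0.17, with a median of 0.01 and a median size of 0.07. Over all tested genes the median was 0.00 and the median size 0.13. By mean FPKM the 10 genes stood above 68.8% to 98.0% of tested genes, and sizes were not compared at like levels.

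**Figure D1:**
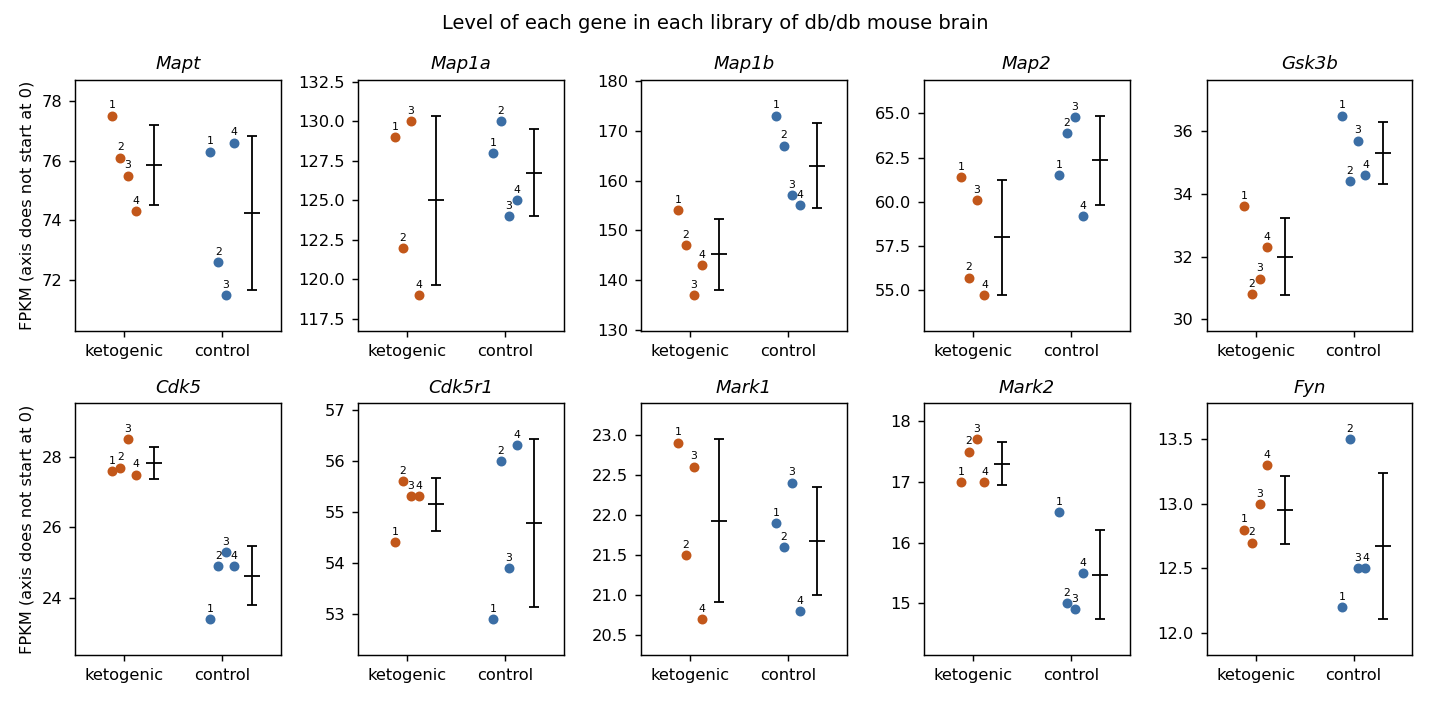
FPKM of each gene in each library (numbered points), with the mean and SD of the 4 ketogenic and 4 control libraries beside them; the axes do not start at 0. The groups are apart for Map1b, Gsk3b, Cdk5 and Mark2, and overlap for the other genes.

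Levels are given as FPKM, the deposited read count per kilobase of gene and scaled to the library's total, and the raw counts behind them were 2314 to 73954 per library. Map1b had the highest level on this scale, with 137 to 173 FPKM over the 8 libraries, followed by Map1a with 119 to 130 FPKM. After them came Mapt with 71.5 to 77.5 FPKM and Map2 with 54.7 to 64.8 FPKM. Next were Cdk5r1 with 52.9 to 56.3, Gsk3b with 30.8 to 36.5 and Cdk5 with 23.4 to 28.5 FPKM. Mark1 had 20.7 to 22.9, Mark2 14.9 to 17.7 and Fyn 12.2 to 13.5 FPKM. Each gene was above the next in all 8 libraries except Map2, which was above Cdk5r1 in 7. By mean FPKM, Map1b stood above 98.0% and Fyn above 68.8% of the tested genes.

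This order depends on the gene length the authors divided by. The length in the deposited values was 21473 bases for Map2, where the longest coding transcript in GENCODE M21 has 6258 bases, and 10040 bases for Fyn, where it has 3562 bases. Scaled to the longest coding transcript, a choice made after seeing the data, Map2 averaged 206 FPKM over the 8 libraries and came first, ahead of Map1b at 160, Map1a at 132 and Mapt at 120 FPKM. Fyn then averaged 36.2 FPKM and came seventh, next to Cdk5 at 36.5 and Gsk3b at 34.3 FPKM, whose ranges overlap its range of 34.5 to 38.2 FPKM. Mark1 at 25.7 and Mark2 at 24.8 FPKM came last and also overlapped. Comparisons of 1 gene between diets are not touched by the length, except where a trend on gene length is removed below, which used the deposited lengths.

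Among the microtubule-associated proteins, Mapt had nearly the same level on both diets. It had 77.5, 76.1, 75.5 and 74.3 FPKM in ketogenic libraries, against 76.3, 72.6, 71.5 and 76.6 FPKM in control libraries. The groups overlap, and the log2 fold change was 0.03 ± 0.05 (SE, n = 4 each, edgeR adjusted p = 0.793), with a 95% interval of -0.08 to 0.13. Mapt lies on chromosome 11 from 104231390 to 104332090 (GRCm38, plus strand) and has 12 annotated transcripts, whose reads the table sums, so the isoforms with more or fewer microtubule-binding repeats are not told apart.

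Map2, the dendritic relative of tau, had 61.4, 55.7, 60.1 and 54.7 FPKM in ketogenic libraries, against 61.5, 63.9, 64.8 and 59.2 FPKM in control libraries. Ketogenic replicates 2 and 4 were below every control library, and replicates 1 and 3 were within the control range. Map2 had a log2 fold change of -0.11 ± 0.06 (SE, n = 4 each, edgeR adjusted p = 0.268), with a 95% interval of -0.23 to 0.01. Map2 lies on chromosome 1 from 66175273 to 66442583 and has 24 annotated transcripts.

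Map1b, which is prominent in growing axons, had 154, 147, 137 and 143 FPKM in ketogenic libraries, against 173, 167, 157 and 155 FPKM in control libraries. On this scale all 4 ketogenic libraries were below all 4 control libraries. With edgeR's TMM scaling (trimmed mean of M values) the ranges met, at 1730 to 1900 CPM (counts scaled to a common library total) in ketogenic and 1890 to 2160 CPM in control libraries. Its log2 fold change was -0.17 ± 0.05 (SE, n = 4 each), with a 95% interval of -0.29 to -0.06 and an edgeR adjusted p of 0.0656. The adjusted p was 0.0304 without control replicate 4, where 12.7% of all genes passed, and 0.0289 with the replicate number as a block, where 10.3% did. Map1b passed under 3 of the 21 alternatives tried, namely these and the DESeq2 Wald test. Its adjusted p over the 21 was 0.0214 to 0.306. The gene lies on chromosome 13 from 99421446 to 99516540 on the minus strand. An annotated gene on the same strand, 5330431K02Rik, overlaps it, so strand would not tell their reads apart.

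Map1a had 129, 122, 130 and 119 FPKM in ketogenic libraries, against 128, 130, 124 and 125 FPKM in control libraries. Its spread was wider among ketogenic libraries, with 2 of them below every control library. Map1a had a log2 fold change of -0.03 ± 0.05 (SE, n = 4 each, edgeR adjusted p = 0.805). Map1a lies on chromosome 2 from 121289600 to 121310832. Its end overlaps Ppip5k1 on the other strand, and since no source used here says whether the counting used strand, reads of such overlapping pairs cannot be told apart. Antisense genes overlap Mapt, Map2, Mark1, Mark2 and Fyn in the same way.

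Cdk5, a kinase active in neurons after they stop dividing, had 27.6, 27.7, 28.5 and 27.5 FPKM in ketogenic libraries, against 23.4, 24.9, 25.3 and 24.9 FPKM in control libraries. Every ketogenic library was above every control library, also with TMM scaling, where they had 77.3 to 83.8 CPM against 68.1 to 73.1 CPM. For Cdk5 the log2 fold change was 0.17 ± 0.05 (SE, n = 4 each), with a 95% interval of 0.06 to 0.29 and an edgeR adjusted p of 0.0669, and the DESeq2 Wald test gave an adjusted p of 0.0287. Of the 21 alternatives tried, Cdk5 passed only under that 1. Cdk5 lies on chromosome 5 from 24418241 to 24423530 (minus strand), with no annotated gene overlapping it.

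Cdk5r1, whose product p35 activates CDK5, had 54.4, 55.6, 55.3 and 55.3 FPKM in ketogenic libraries, against 52.9, 56.0, 53.9 and 56.3 FPKM in control libraries. The ketogenic values lie inside the control range, and the log2 fold change was 0.01 ± 0.05 (SE, n = 4 each, edgeR adjusted p = 0.955), with a 95% interval of -0.09 to 0.11. Cdk5r1 lies on chromosome 11 from 80477023 to 80481184. The gene of the second activator, Cdk5r2 (named as a paralog, after its values were seen), had 133 ± 11.6 FPKM in ketogenic and 142 ± 9.34 FPKM in control libraries (SD, n = 4 each; edgeR adjusted p = 0.419).

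Gsk3b had 33.6, 30.8, 31.3 and 32.3 FPKM in ketogenic libraries, against 36.5, 34.4, 35.7 and 34.6 FPKM in control libraries. All 4 ketogenic libraries were below all 4 control libraries, also with TMM scaling. For Gsk3b the log2 fold change was -0.15 ± 0.05 (SE, n = 4 each), with a 95% interval of -0.26 to -0.04 and an edgeR adjusted p of 0.0923, and the DESeq2 Wald test gave an adjusted p of 0.0428. Of the 21 alternatives tried, Gsk3b passed only under that 1. Gsk3b lies on chromosome 16 from 38089001 to 38246084. Its paralog Gsk3a, named after its values were seen, had 148 ± 6.47 FPKM in ketogenic and 166 ± 16.1 FPKM in control libraries (SD, n = 4 each), a log2 fold change of -0.18 with an edgeR adjusted p of 0.135.

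Mark2, of the MARK family, had 17.0, 17.5, 17.7 and 17.0 FPKM in ketogenic libraries, against 16.5, 15.0, 14.9 and 15.5 FPKM in control libraries. The groups are apart in FPKM and meet with TMM scaling, where ketogenic libraries had 113 to 124 CPM and control libraries 101 to 114 CPM. The log2 fold change was 0.16 ± 0.06 (SE, n = 4 each), with a 95% interval of 0.04 to 0.27 and an edgeR adjusted p of 0.0922. Mark2 did not pass under any of the 21 alternatives tried, where its adjusted p was 0.0526 to 0.386. It lies on chromosome 19 from 7275396 to 7341860 (minus strand) and has 21 annotated transcripts.

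Mark1 had 22.9, 21.5, 22.6 and 20.7 FPKM in ketogenic libraries, against 21.9, 21.6, 22.4 and 20.8 FPKM in control libraries. These ranges overlap almost wholly, and the log2 fold change was 0.01 ± 0.06 (SE, n = 4 each, edgeR adjusted p = 0.929), with a 95% interval of -0.11 to 0.13. Mark1 lies on chromosome 1 from 184896789 to 184999570 (minus strand). A further family member, Mark4, named after its values were seen, had 26.4 ± 0.874 FPKM in ketogenic and 24.1 ± 1.03 FPKM in control libraries (SD, n = 4 each; edgeR adjusted p = 0.151).

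Fyn, the Src-family kinase gene, had 12.8, 12.7, 13.0 and 13.3 FPKM in ketogenic libraries, against 12.2, 13.5, 12.5 and 12.5 FPKM in control libraries. Control replicate 2 was above every ketogenic library and the other control libraries below, so the groups overlap. The log2 fold change was 0.02 ± 0.05 (SE, n = 4 each, edgeR adjusted p = 0.815), with a 95% interval of -0.08 to 0.13. Fyn lies on chromosome 10 from 39368855 to 39565381.

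Counted over the 10 genes, the groups did not overlap for 4 in FPKM, where 14.1% of tested genes did not, and for 2 with TMM scaling, Cdk5 and Gsk3b, where 13.7% did not. Long genes had slightly lower and short genes slightly higher values in ketogenic libraries over the whole table. The median log2 fold change was 0.08 in the decile of the shortest tested genes and -0.05 in the decile of the longest, which holds Map1a, Map1b, Map2 and Fyn. These deciles and the trend removal that follows used the lengths in the deposited values, so they depend on them, as for Map2 and Fyn. With each library's trend on GC content and length removed, the log2 fold change was -0.13 for Map1b (unadjusted p = 0.0424), 0.14 for Cdk5 (unadjusted p = 0.0353), -0.09 for Gsk3b (unadjusted p = 0.135), 0.11 for Mark2 (unadjusted p = 0.119) and -0.06 for Map2. None of these passed, with edgeR adjusted p of 0.221 for Cdk5, 0.242 for Map1b, 0.386 for Mark2, 0.409 for Gsk3b and 0.695 for Map2.

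**Figure D2:**
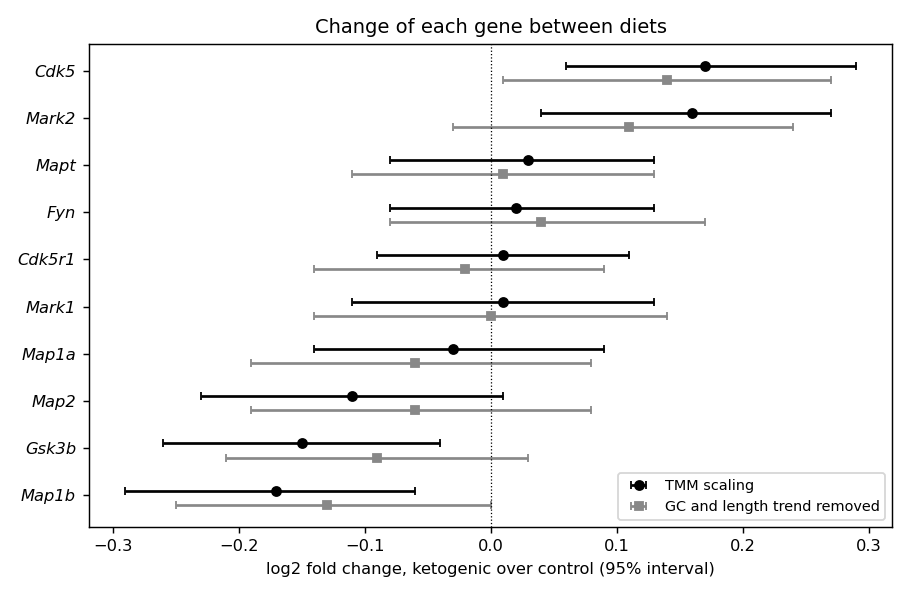
Log2 fold change of each gene, ketogenic over control, with its 95% interval from edgeR (n = 4 libraries each), with TMM scaling (circles) and after removal of the GC and length trend (squares). The intervals of Cdk5, Mark2, Gsk3b and Map1b leave out 0 with TMM scaling, and those of Mark2 and Gsk3b include 0 once the trend is removed.

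Ratios of 2 genes within a library do not depend on how libraries are scaled to each other, and they are given here as a description with no test. They still carry each library's trend on GC content and length. Their level depends on the gene lengths divided by, and their difference between diets does not. The share of all gene pairs whose ratios are apart was not counted. The log2 ratio of Cdk5r1 to Cdk5, activator to kinase, was 0.98, 1.01, 0.96 and 1.0 in ketogenic libraries, against 1.17, 1.17, 1.09 and 1.18 in control libraries. The 4 ketogenic libraries were all below the 4 control libraries, with a difference in means of -0.16 that stayed between -0.19 and -0.15 when any 1 library was left out. As a plain ratio of FPKM it averaged 1.98 in ketogenic and 2.22 in control libraries.

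The log2 ratio of Map1a to Map1b was -0.26, -0.27, -0.08 and -0.27 in ketogenic libraries, against -0.43, -0.36, -0.34 and -0.31 in control libraries. The groups are apart, and ketogenic replicate 3 lies far above the other 3 ketogenic libraries. The difference in means was 0.14, and 0.10 without that library. Ketogenic replicate 3 was also the farthest from the other libraries on the first principal component of all genes, at -34.4, where the other ketogenic libraries lay at -11.2 to -2.90 and the control libraries at 5.94 to 22.7.

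The other pairs overlapped. The log2 ratio of Mapt to Map2 averaged 0.39 ± 0.07 in ketogenic and 0.25 ± 0.11 in control libraries (SD, n = 4 each), and control replicate 4, at 0.37, lay inside the ketogenic range. The log2 ratio of Mark1 to Mark2 averaged 0.34 ± 0.07 in ketogenic and 0.49 ± 0.08 in control libraries (SD, n = 4 each), with ketogenic replicate 1 inside the control range. With the trend removed, the log2 fold change was 0.00295 for Mark1 and 0.11 for Mark2, against 0.01 and 0.16 before. For Mapt and Map2 it was 0.01 and -0.06, against 0.03 and -0.11 before.

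**Figure D3:**
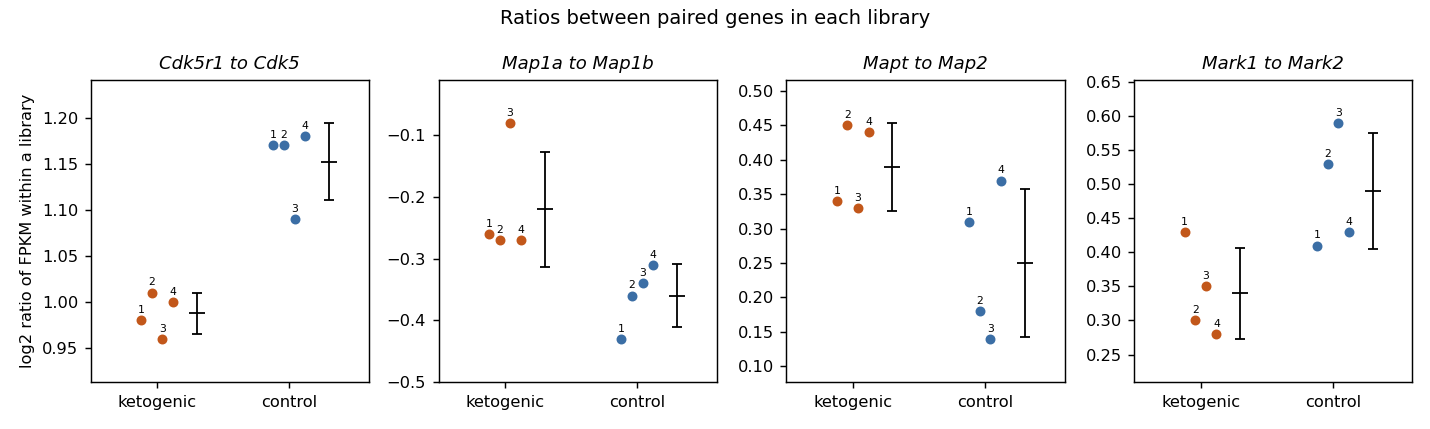
Log2 ratio of the FPKM of paired genes in each library (numbered points), with the mean and SD of the 4 ketogenic and 4 control libraries. The groups are apart for Cdk5r1 to Cdk5 and for Map1a to Map1b, and overlap for Mapt to Map2 and Mark1 to Mark2.

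The wider set of tau and microtubule genes was described from 5 lists with 102 genes, all of them tested. Of these 4 rose, 3 fell and 95 did not pass, which is 6.86% called against 6.52% of all tested genes. Their median log2 fold change was 0.01, against 0.00 over all tested genes. Doublecortin (Dcx) fell with each library left out in turn, and each of the other 6 calls was lost without some libraries.

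Of 28 other tau kinases and activators 2 rose, 1 fell and 25 did not pass, with a median log2 fold change of 0.02. That is 10.7% called, against 6.52% of all tested genes. In edgeR 6 had higher and 4 lower values at an unadjusted p under 0.05, against 12.1% and 12.5% of all tested genes. DESeq2 passed 3 higher and 2 lower, against its 12.8% in either direction. With TMM scaling the groups did not overlap for 8 of the 28, where 13.7% of tested genes did not. Mark3, a further MARK family kinase, had 21.8, 21.3, 23.1 and 21.6 FPKM in ketogenic libraries, against 16.4, 18.3, 18.0 and 19.6 FPKM in control libraries. It rose by 0.27 ± 0.06 in log2 (SE, n = 4 each, edgeR adjusted p = 0.0229), and its log2 fold change was 0.39 after removal of the GC and length trend (adjusted p = 0.015). The call was lost without ketogenic replicate 2 or control replicate 1, 2 or 3, with an adjusted p of up to 0.0803. So of the 4 MARK genes 1 passed, and differences between their changes were not tested.

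Csnk1d, which encodes casein kinase 1 delta, rose to 35.6 ± 2.03 FPKM in ketogenic libraries, against 30.8 ± 1.97 FPKM in control libraries (SD, n = 4 each; edgeR adjusted p = 0.0424). Mapk8, which encodes the stress-activated kinase JNK1, fell to 20.2 ± 1.17 FPKM in ketogenic libraries, against 24.0 ± 1.38 FPKM in control libraries (SD, n = 4 each; edgeR adjusted p = 0.0343). Both calls were lost without ketogenic replicate 2 or 4 or control replicate 1, 2 or 3, and that of Csnk1d also without ketogenic replicate 3, with adjusted p of up to 0.136 for Csnk1d and 0.105 for Mapk8. Both were lost as well after trend removal, at 0.126 for Csnk1d and 0.347 for Mapk8, where the log2 fold change was 0.18 for Csnk1d, against 0.21 before, and -0.12 for Mapk8, against -0.25 before.

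On the opposing side, of 19 genes of tau phosphatases and other tau modifiers 1 rose, 0 fell and 18 did not pass, with a median log2 fold change of -0.01. At an unadjusted p under 0.05 in edgeR 2 had higher and 1 had lower values, against 24.6% in either direction over all tested genes, and DESeq2 passed 1 higher and 0 lower, against its 12.8%. Ptpa, which encodes an activator of protein phosphatase 2A, the main tau phosphatase, had 72.8, 71.5, 69.0 and 76.9 FPKM in ketogenic libraries, against 54.2, 59.9, 64.0 and 67.7 FPKM in control libraries. The groups are apart, and the log2 fold change was 0.23 ± 0.06 (SE, n = 4 each, edgeR adjusted p = 0.0356). The call was lost without any 1 of ketogenic replicates 1, 2 and 4 or control replicates 1 to 3 (adjusted p up to 0.115) and with the trend removed (0.105), where the log2 fold change was 0.20.

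Of 32 other microtubule-binding protein genes 2 fell, 0 rose and 30 did not pass, with a median log2 fold change of -0.02. At an unadjusted p under 0.05 in edgeR 7 had lower and 1 had higher values, against 12.5% lower and 12.1% higher over all tested genes. DESeq2 passed 5 lower and 0 higher. Of the 13448 genes to which it gave an adjusted p, 853 passed with lower and 866 with higher values, 12.8% in either direction. Dcx, a marker of immature neurons that binds microtubules, had 2.03, 2.05, 1.74 and 1.87 FPKM in ketogenic libraries, against 3.08, 3.14, 2.39 and 2.65 FPKM in control libraries. Every ketogenic library was below every control library. The log2 fold change was -0.56 ± 0.10 (SE, n = 4 each, edgeR adjusted p = 0.00735), the largest among the 102 genes, and it stayed between -0.62 and -0.50 with 1 library left out, with an adjusted p of up to 0.0377. The call was lost with limma on log2(FPKM + 1) (adjusted p = 0.0697) and log2(FPKM + 0.1) (0.0634), and without both ketogenic libraries numbered 3 and 4 (0.0766).

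Stmn4, of the stathmin family of tubulin-binding proteins, fell to 141 ± 4.37 FPKM in ketogenic libraries, against 160 ± 2.32 FPKM in control libraries (SD, n = 4 each; edgeR adjusted p = 0.0289). It also passed after trend removal (0.0364). The call was lost without ketogenic replicate 2 or 4 or control replicate 1, 2 or 3 (adjusted p up to 0.0814). Map4, the paralog of Mapt and Map2 found in many tissues, and Map1s, that of Map1a and Map1b, were named after their values were seen. Map4 had 45.3 ± 2.57 FPKM in ketogenic and 50.5 ± 3.27 FPKM in control libraries (SD, n = 4 each; edgeR adjusted p = 0.102). Map1s had 14.3 ± 1.27 FPKM in ketogenic and 13.9 ± 0.675 FPKM in control libraries (adjusted p = 0.759).

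Of 14 tubulin genes 1 rose, 0 fell and 13 did not pass, with a median log2 fold change of -0.01. At an unadjusted p under 0.05 in edgeR 3 had higher and 1 had lower values, against 24.6% in either direction over all tested genes, and DESeq2 passed 2 higher and 0 lower, against its 12.8%. Tubb5, a beta-tubulin, had 217, 228, 220 and 214 FPKM in ketogenic libraries, against 189, 186, 194 and 203 FPKM in control libraries, a log2 fold change of 0.18 ± 0.05 (SE, n = 4 each, edgeR adjusted p = 0.0412). The call was lost without any 1 of ketogenic replicates 1 to 3 or control replicates 1 to 3 (adjusted p up to 0.124) and with the trend removed (0.156), where the log2 fold change was 0.16. Tubulin genes are near copies of each other, so the counting could split their reads and these values are uncertain.

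Of 9 genes for partners and regulators of Fyn 0 passed in edgeR, DESeq2 or limma-voom. Over all tested genes 6.52% passed in edgeR, and DESeq2 passed 12.8% of those to which it gave an adjusted p. At an unadjusted p under 0.05 in edgeR 1 had lower and 0 had higher values, against 24.6% in either direction over all tested genes. The 2 with the smallest p were Grin2b, an NMDA receptor subunit that Fyn phosphorylates, and Ptk2b, a tyrosine kinase that can activate Fyn. Grin2b had 19.1 ± 2.06 FPKM in ketogenic and 22.3 ± 2.88 FPKM in control libraries (SD, n = 4 each; edgeR adjusted p = 0.122). Ptk2b had 150 ± 11.3 FPKM in ketogenic and 139 ± 2.91 FPKM in control libraries (adjusted p = 0.309).

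**Figure D4:**
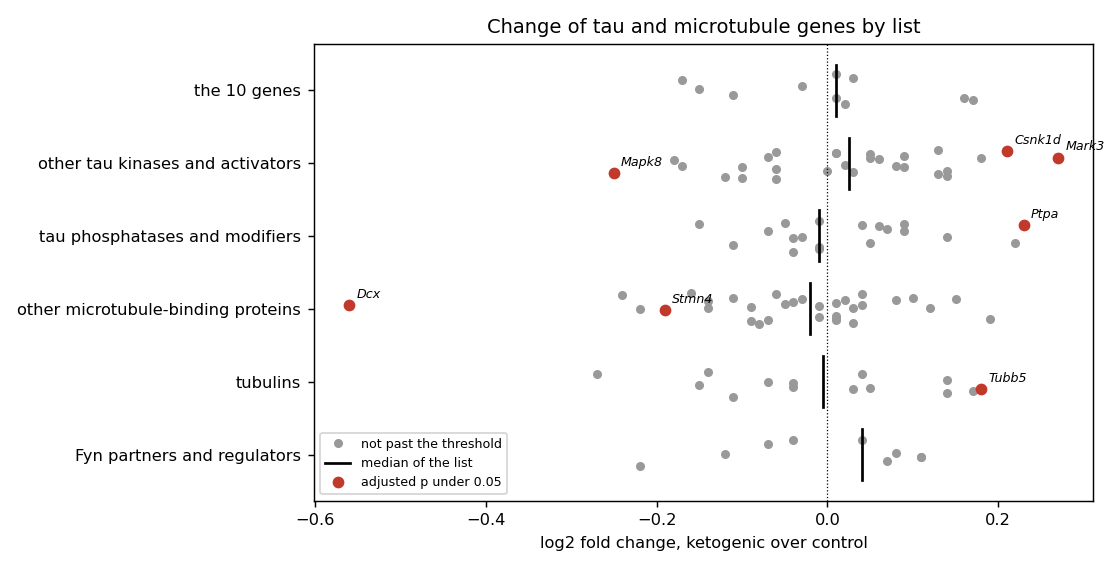
Log2 fold change, ketogenic over control, of the 10 genes and of the 5 lists (points, jittered up and down), with the median of each list as a bar. Red points passed an edgeR adjusted p of 0.05: none of the 10 genes and 7 of the 102 others, of which Dcx lies farthest from 0, at -0.56.

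The libraries held brain tissue by their markers, none of which was at 0. The summed level of 8 neuron markers was 7870 to 9180 CPM in ketogenic and 8500 to 9700 CPM in control libraries, and of these 1, Syn1, fell and 0 rose. Of 8 astrocyte markers 4 fell (Gfap, Aqp4, Aldh1l1 and Gja1), where 3.22% of all tested genes did, with sums of 4690 to 5320 CPM in ketogenic and 4820 to 5670 CPM in control libraries. Of 8 oligodendrocyte markers 0 passed in edgeR, DESeq2 or limma-voom, and 0 had an unadjusted p under 0.05 in edgeR, with sums of 5030 to 6640 CPM in ketogenic and 5390 to 5700 CPM in control libraries. Summed levels also overlapped between diets for microglia (1 of 8 markers, Tmem119, rose), oligodendrocyte precursors (1 of 6, Sox10, fell), endothelium (0 of 7 passed in edgeR, DESeq2 or limma-voom, 1 at an unadjusted p under 0.05 in edgeR) and choroid plexus (0 of 6, with 2 at that p). For all these marker counts, 3.3% of all tested genes rose, 3.22% fell and 24.6% had an unadjusted p under 0.05 in edgeR. The sums of erythrocyte genes did not overlap, with 69.4 to 114 CPM in ketogenic and 15.3 to 52.4 CPM in control libraries, and 4 of the 5 rose, where 3.3% of all tested genes did. The part of these markers in the values of the tau and microtubule genes was not tested.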

How the data were processed

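The authors deposited whole-number counts per gene symbol and FPKM values for the same 8 libraries, labelled by title. GRCm38 and mm10 stand as builds in the submitters' processing notes; the sources used here name no aligner, counter, strand setting or annotation. The deposited FPKM equalled count over a fixed length per gene and the column total (largest relative spread of the length 1.79e-07). Totals were 38163795 to 40233361 counts in ketogenic and 34450860 to 38738800 in control libraries.

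Counts were tested with edgeR 4.0.16 (TMM factors, filterByExpr, quasi-likelihood F test, diet as the single term) over 14895 genes, with Benjamini-Hochberg adjustment over all of them and a threshold of 0.05. The SE is the size of the log2 fold change over the square root of F. Alternatives were other scalings and filters, DESeq2 1.42.0, limma 3.58.1 (voom, and log2(FPKM + 1) or log2(FPKM + 0.1)), a replicate block, offsets that remove a loess trend (span 0.3) on GC content and gene length (log2), and libraries left out. GC content came from GENCODE M21 transcripts and was known for 98.1% of tested genes. Coordinates are GENCODE M21 gene bounds.

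The 10 genes and the lists were chosen with earlier results of these data known. Named were the 10 genes, every list gene past the threshold and, in a list with none, the 2 with the smallest p; 5 paralogs were added after their values were seen. Lists were described by counts and medians and not tested as lists.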

Additional observations from a re-analysis of the deposited data

Results flagged for a closer look

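Within groups of 4 libraries, 3 values had a gap to their nearest neighbour above the 95% critical value of Dixon's test, among 92 groups examined, where chance flags about 1 in 20 groups. Cdk5 had 28.5 FPKM in ketogenic replicate 3, with 27.5 to 27.7 FPKM in the other ketogenic libraries. The log2 ratio of Map1a to Map1b was -0.08 in ketogenic replicate 3, with -0.27 to -0.26 in the others of its group. The log2 ratio of Cdk5r1 to Cdk5 was 1.09 in control replicate 3, with 1.17 to 1.18 in the other control libraries.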

How the results depend on the processing

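Of 210 values of the 10 genes under 21 alternatives, 195 kept their direction and their side of the threshold, 5 passed it and 10 changed sign. With the DESeq2 Wald test 1 of the 10 was higher and 2 lower, other pathway genes were 6 higher and 7 lower, and all genes 866 higher and 853 lower. With the replicate block 0 of the 10 were higher and 1, Map1b, lower, with 5 and 5 pathway genes and 746 and 782 genes in all. With each group's mean taken off each gene, same-numbered libraries correlated at 0.0218 to 0.0759 over all tested genes. On these centred values 2 of 4 ketogenic and 2 of 4 control libraries correlated best with their own number, so the numbers are not shown to pair them. After removal of the GC and length trend the pathway genes were 1 higher and 2 lower and all genes 144 and 151, and with the block added 1 and 4 pathway genes. With limma on log2(FPKM + 1) they were 0 and 0, and 35 and 29. With limma on log2(FPKM + 0.1) they were 0 and 0, and 51 and 37. Without both ketogenic libraries numbered 3 and 4 they were 0 and 0, and 39 and 51. With 1 library left out, 0 of the 10 were higher and 0 to 1 lower, pathway genes were 0 to 9 higher and 1 to 10 lower, and all genes 70 to 938 higher and 76 to 962 lower, the highest without control replicate 4. Cdk5r1 was at -0.02 with the trend removed, -0.03 with the block added, -0.0013 without both ketogenic libraries, and -0.01 to 0.02 with 1 left out. Without both, Fyn was at -0.00221. With 1 left out Mark1 ran from -0.01 to 0.05 and Map1a from -0.06 to 0.01, and Map1s was at -0.03 with the trend removed and -0.03 with the block added. The cause of these changes was not tested. Each of the 10 genes had at least 2314 counts in every library, and how much of its interval comes from counting error was not tested.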
